A study of Mus musculus with 6 samples.

Results

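The 9 genes C1qa, C1qb, C1qc, Csf1r, Adgre1, Cd68, Vcam1, Lyz2 and Mrc1, which are commonly used to mark macrophages, were followed through RNA-Seq libraries of sorted LT-HSCs. They were chosen by name, out of 27179 genes in the count table. Of the 9 genes, 6 have a row under these symbols in the normalized table of 12179 genes, and Adgre1 has a row there under its older symbol Emr1. C1qa and C1qb have a row in the count table only. The study compared LT-HSCs (CD150+CD48-LSK) sorted from the BM of 3 WT mice and 3 Foxm1 HET mice, all of the C57BL/6 strain and 8 weeks of age, to find expression changes that accompany the loss of 1 Foxm1 allele. WT libraries are labelled with the genotype WT, and Foxm1 HET libraries with the genotype Foxm1 heterozygous and with a floxed Foxm1 allele in their titles, where no Cre is named. The study describes Foxm1-floxed Tie2-Cre and Mx1-Cre mice and does not say which driver the RNA-Seq mice carried. Tie2-Cre is active in blood cells and also in endothelial cells. No treatment is given for these mice, and the labels do not say whether animals were pooled.

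Macrophages arise from blood monocytes or from embryonic precursors, and in the marrow they clear dying cells, recycle iron and nurse erythroblasts in erythroblastic islands. C1qa, C1qb and C1qc encode the chains of C1q, which starts the classical complement pathway and in the body comes mostly from macrophages. Csf1r is the receptor for the growth factors CSF1 and IL-34, on which most macrophages depend. Adgre1, Cd68, Vcam1 and Mrc1 encode surface or lysosomal proteins of mature macrophages, and Lyz2 encodes a bactericidal lysozyme that neutrophils and monocytes also make. LT-HSCs are not macrophages. Whether the reads of these genes came from the sorted stem cells or from mature myeloid cells was not tested. In bulk libraries such as these, fewer cells of a type cannot be told apart from less RNA per cell.

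Upstream sequence in the RefSeq promoter table (GRCm38.p6) was found for 5 of the 9 genes. The 250 bases before the start site are shown for C1qb and C1qc, 2 neighbouring genes with reads in at most 1 library here. They are also shown for Lyz2, the most abundant gene of the group. All lie on the minus strand and are printed 5′ to 3′ along the gene, ending at the base before the start. Capitals mark a match to AGGAAGT, the core bound by PU.1, the master factor of myeloid cells, or to its reverse complement.
C1qb, chr4:136886201-136886450: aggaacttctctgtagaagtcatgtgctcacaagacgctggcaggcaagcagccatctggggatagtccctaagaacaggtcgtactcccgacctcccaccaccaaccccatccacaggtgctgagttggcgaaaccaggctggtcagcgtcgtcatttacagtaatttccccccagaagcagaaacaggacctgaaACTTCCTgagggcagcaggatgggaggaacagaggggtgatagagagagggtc
C1qc, chr4:136892915-136893164: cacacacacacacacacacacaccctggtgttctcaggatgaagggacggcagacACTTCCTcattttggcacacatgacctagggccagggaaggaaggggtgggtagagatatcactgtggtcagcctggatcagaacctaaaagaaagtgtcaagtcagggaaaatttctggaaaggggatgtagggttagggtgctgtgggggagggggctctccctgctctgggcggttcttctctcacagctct
Lyz2, chr10:117282273-117282522: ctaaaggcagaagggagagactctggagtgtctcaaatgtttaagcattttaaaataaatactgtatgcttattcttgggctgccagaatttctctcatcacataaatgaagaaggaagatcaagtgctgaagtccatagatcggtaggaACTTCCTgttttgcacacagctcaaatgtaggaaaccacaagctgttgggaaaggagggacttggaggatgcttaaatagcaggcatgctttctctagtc

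Of the 5 promoters found, 4 (C1qb, C1qc, Lyz2 and Mrc1) held AGGAAGT on the reverse strand, against 7.80% of 27025 promoters searched on both strands over the same length. The match starts 53 bases before the start in C1qb, 100 in Lyz2, 195 in C1qc and 211 in Mrc1. Cd68 held no match to it. The Cd68 promoter instead held TTNNGCAA, a C/EBP-type sequence found in 9.55% of promoters, and 2 copies of TGANTCA, an AP-1 site found in 6.87%. Neither of these was found in the other 4 promoters. Genes with and without reads in these libraries thus carried the same 7 letters, and a match is a description of sequence only. The motifs were chosen after these promoters were read, so the shares over all promoters do not test for an excess here.

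Library totals ran from 14573002 to 25798509 counted reads, and the lowest was Foxm1 HET replicate 2, which also had the fewest genes with at least 10 reads (4467). Foxm1 had 1182, 2615 and 2942 reads in WT, against 659, 5 and 742 in Foxm1 HET. Of the genes that define the sorted population, Kit had between 10720 and 48031 reads in every library. Ly6a, which encodes Sca-1, had 4 or fewer reads in WT replicates 2 and 3 and in Foxm1 HET replicate 2. Slamf1, which encodes CD150, had 2, 1572 and 0 reads in WT, against 8, 0 and 543 in Foxm1 HET. Cd48, which the sort selects against, had between 1 and 6608 reads. The antibodies of the lineage cocktail named in the study's methods include Gr1 and B-cell, T-cell and erythroid markers, and the cocktail names no antibody against a macrophage surface protein.

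C1qa and C1qb had no read in any library. C1qc, Adgre1, Cd68, Vcam1 and Mrc1 had more than 3 reads in some libraries and not in others. Csf1r and Lyz2 had more than 3 reads in every library, and Lyz2 was abundant in all of them. Between genotypes, none of the 5 genes with enough reads for the test differed in edgeR's quasi-likelihood test after Benjamini-Hochberg adjustment over 8195 genes, and none had an unadjusted p under 0.05. At an unadjusted p under 0.05, DESeq2 also gave 0 of the markers, where 13.1% of all genes passed, and limma-voom gave 1, Lyz2, where 3.31% passed. In the same edgeR fit 27 of the 8195 genes tested, or 0.329%, had an adjusted p under 0.05 (0.317% higher and 0.0122% lower in Foxm1 HET), and 6.03% had an unadjusted p under 0.05. DESeq2 called 3.13% of 6195 genes and 0 of the markers. The median standard error of a log2 fold change over all genes was 2.59, so with 3 libraries a genotype a change of a few-fold in a single gene was not detectable.

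**Figure D1:**
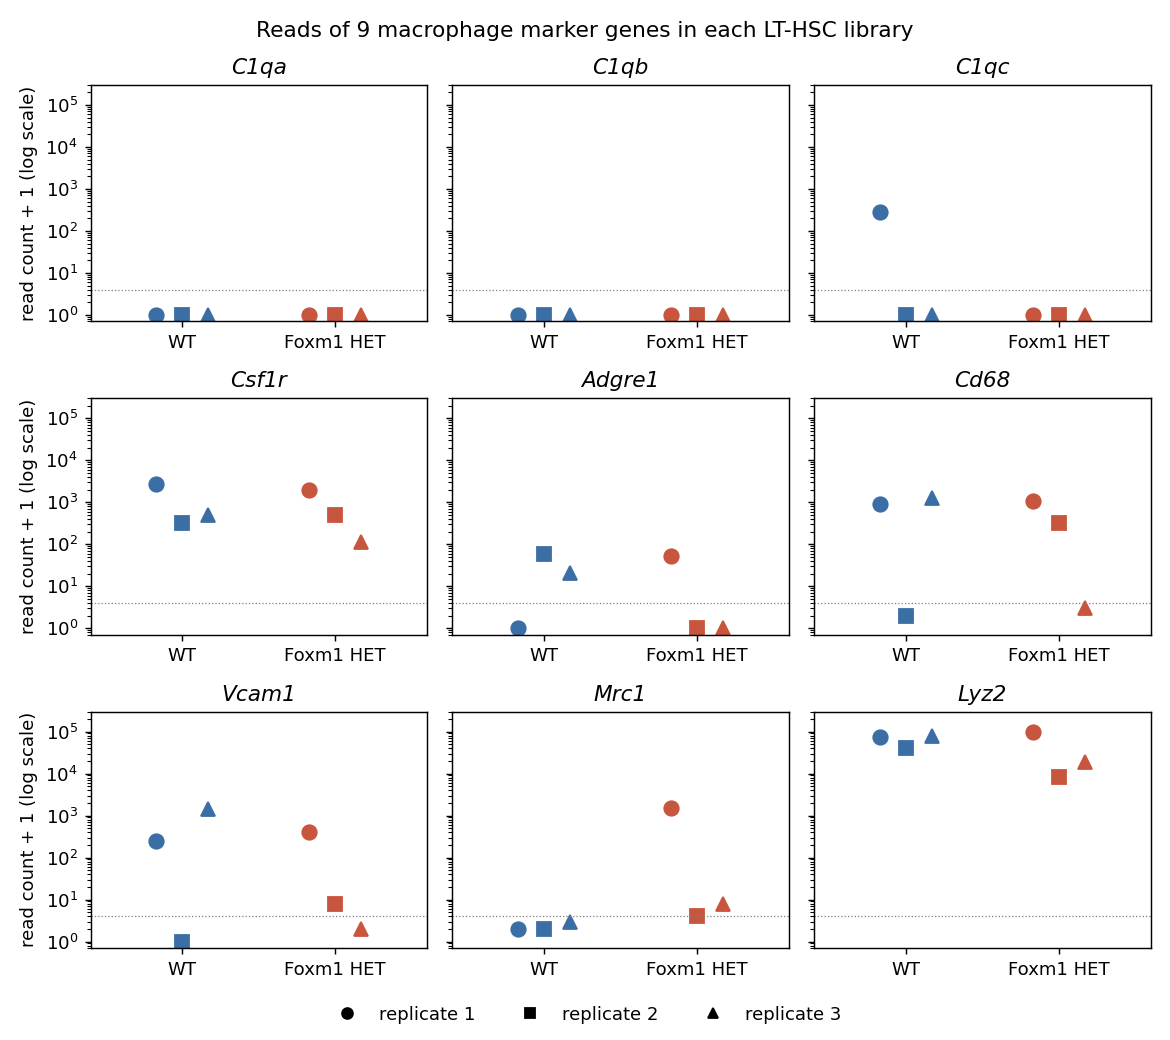
Read count plus 1 on a log scale for each of the 9 macrophage marker genes in the 3 WT (blue) and 3 Foxm1 HET (red) libraries, with a symbol for each replicate number and a dotted line at 3 reads. C1qa and C1qb are at 0 in all 6 libraries, Lyz2 lies between 8161 and 96731 reads, and most other genes are high in some libraries of a genotype and near 0 in others.

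The C1q genes lie side by side on chromosome 4 of GRCm38, on the minus strand, in the order C1qb, C1qc and C1qa within 18700 bases (136880145 to 136898844), each with 3 exons. C1qa had 0 reads in all 6 libraries. In the library with the fewest reads this allows up to 0.206 CPM (counts per 1000000 reads), at 3 reads of that library's total. C1qb was also at 0 in all 6 libraries. Of the 1062 exon bases of C1qb, 570 also belong to an unnamed gene on the plus strand, itself at 0 reads in all 6 libraries, and 492 belong to C1qb alone. How the counting treated reads in the shared part is not given in the sources used here.

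C1qc had 288 reads in WT replicate 1 and 0 reads in the other 5 libraries. At a CPM of 14.3, this library was well above the limit of 0.149 that applied to C1qa and C1qb in the same library. The chains of C1q are assembled together in macrophages, and here 1 chain was detected without the other 2. C1qc was too rarely detected for the test, and its genotypes overlapped, with 2 WT libraries and all Foxm1 HET libraries at 0. Detection in 1 library only was frequent in these data: of the 13082 genes with more than 3 reads in any library, 18.8% had them in 1 library.

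Csf1r, the receptor tyrosine kinase for CSF1 and IL-34, was read in every library. It lies on chromosome 18 (61105572 to 61131139, plus strand, 22 exons). Its counts were 2717, 312 and 486 in WT, against 1959, 486 and 110 in Foxm1 HET. On the scale of log2 CPM the highest library was WT replicate 1 (6.94) and the lowest Foxm1 HET replicate 3 (1.44), and the remaining Foxm1 HET libraries (5.69 and 6.23) lay above the remaining WT libraries (3.80 and 4.93), so the genotypes overlapped. Log2 CPM averaged 5.22 ± 1.59 in WT and 4.45 ± 2.62 in Foxm1 HET (SD, n = 3 each, two-sided exact permutation test, p = 0.8, where 3 against 3 cannot go below 0.1). edgeR put the log2 fold change at -0.37 ± 2.28 (SE) with an adjusted p of 0.998. Its sign was not stable: it was 0.29 with RLE scaling, 0.97 without WT replicate 1 and 0.21 without Foxm1 HET replicate 3.

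Adgre1, which encodes the adhesion receptor known as F4/80 (chromosome 17, 57358686 to 57483529, plus strand, 22 exons), was scarce. It had 0, 58 and 20 reads in WT, against 51, 0 and 0 in Foxm1 HET. No library of either genotype reached 3 CPM, and each genotype held libraries at 0. The highest level was a CPM of 2.52 in WT replicate 2. edgeR put the log2 fold change at -1.47 ± 2.68 (SE) with an adjusted p of 0.998. Without Foxm1 HET replicate 1, the only Foxm1 HET library with reads, it was -7.75, a value that depends on the prior count because the remaining 2 are at 0.

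Cd68, which encodes a heavily glycosylated protein of the lysosome and endosome (chromosome 11, 69664371 to 69666062, minus strand), was present or nearly absent by library. It had 894, 1 and 1296 reads in WT, against 1048, 324 and 2 in Foxm1 HET. WT replicate 2 and Foxm1 HET replicate 3 were the libraries near 0, although their totals of 23012808 and 25798509 reads were among the larger. Within WT the range of log2 CPM was 9.33, wider than that of 87.6% of the genes tested. edgeR put the log2 fold change at -0.65 ± 2.50 (SE) with an adjusted p of 0.998. It was 0.02 with RLE scaling and 0.33 without WT replicate 3.

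Vcam1, an adhesion molecule of marrow macrophages that stromal and activated endothelial cells also carry (chromosome 3, 116110020 to 116129688, minus strand, 9 exons), had the widest range in WT of the 5 tested markers. It had 242, 0 and 1412 reads in WT, against 409, 7 and 1 in Foxm1 HET. The genotypes overlapped, and the libraries near 0 for Cd68 were also near 0 for Vcam1. Log2 CPM averaged 2.10 ± 5.18 in WT and 0.14 ± 3.34 in Foxm1 HET (SD, n = 3 each). edgeR put the log2 fold change at -3.06 ± 2.97 (SE) with an adjusted p of 0.998. It was -0.50 without WT replicate 3. Over 20 endothelial and stromal markers, 9 of which had no read in any library, the summed level was 99.4 to 173 CPM in WT and 229 to 473 CPM in Foxm1 HET. With TMM scaling, which the log2 CPM and fold changes use, it was 88.2 to 228 in WT and 166 to 505 in Foxm1 HET, and the genotypes overlapped. Of this list 5 genes were tested, all with a higher estimate in Foxm1 HET (median log2 fold change 2.99) and 0 past the adjusted threshold of edgeR. Tek, the one with the smallest p, had 242, 10 and 1 reads in WT, against 1082, 91 and 4071 in Foxm1 HET. Other genes of the list were nearly absent. Cdh5 had 51 reads in WT replicate 1 and 0 elsewhere, and Lepr was at 0 in all libraries. Cxcl12 had 412 reads in Foxm1 HET replicate 2 and at most 1 elsewhere. The part of these cells in the Vcam1 result was not tested.

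Mrc1, the mannose receptor of tissue macrophages (chromosome 2, 14229414 to 14332023, plus strand, 30 exons), was the 1 gene of the 9 whose genotypes did not overlap. It had 1, 1 and 2 reads in WT, against 1484, 3 and 7 in Foxm1 HET. Foxm1 HET replicate 1 thus held nearly all reads, and every other library had 7 or fewer. On the scale of log2 CPM it averaged -2.75 ± 0.41 in WT and 0.80 ± 3.93 in Foxm1 HET (SD, n = 3 each, exact two-sided permutation p = 0.1, which is the smallest possible). Of the 13845 genes with a read, 6.57% had genotypes that did not overlap, and 3.63% had Foxm1 HET above. The ratio of summed reads over summed totals, Foxm1 HET over WT, was 367 (95% exact interval 143 to 1347), and 4.0 (1.15 to 17.5) without Foxm1 HET replicate 1, where intervals cover counting error only. Mrc1 did not pass the filter on low counts. With no filter its log2 fold change was 7.52 with an adjusted p of 0.538 from edgeR. In the deposited normalized table the genotypes of Mrc1 overlapped.

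Lyz2, the lysozyme of myeloid cells (chromosome 10, 117277541 to 117282272, minus strand, 4 exons), was abundant in all 6 libraries. It had 74365, 39749 and 77162 reads in WT, against 96731, 8161 and 19230 in Foxm1 HET. On the scale of log2 CPM, WT replicate 3 was the highest (12.24), and Foxm1 HET replicates 2 (10.30) and 3 (8.84) were the lowest. Per length, at 3796 to 7630 TPM (transcripts per 1000000, corrected for gene length) in WT, it ranked 7, 14 and 7 among all genes. In Foxm1 HET it had 7530, 1164 and 1683 TPM and ranked 5, 71 and 23. Lyz2 also varied less between replicates than most genes: 92.5% of the genes tested had a wider range of log2 CPM in WT and 82.0% in Foxm1 HET. These genes were not matched to Lyz2 for abundance.

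Log2 CPM of Lyz2 averaged 11.58 ± 0.74 in WT and 10.15 ± 1.24 in Foxm1 HET (SD, n = 3 each), with overlap between genotypes (two-sided exact permutation test, p = 0.2). edgeR put the log2 fold change at -1.22 ± 1.22 (SE) with an adjusted p of 0.998. The estimate stayed negative, between -1.94 and -0.73, over 15 alternatives. limma-voom gave it an unadjusted p of 0.00513 that did not pass the adjusted threshold. Of 17 neutrophil markers, all with reads, 16 were tested, 5 with a higher and 11 with a lower estimate and 0 past the adjusted threshold. Among them, edgeR gave a log2 fold change of -1.15 for S100a8, -1.93 for S100a9, 0.05 for Mpo and 5.78 for Prtn3. The summed level of the list was 6002 to 18205 CPM in WT and 1894 to 9562 CPM in Foxm1 HET, and 5972 to 24062 against 1134 to 19317 with TMM scaling, so the genotypes overlapped either way. The part of neutrophil RNA in the level of Lyz2 was not tested.

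Lyz2 has a close copy, Lyz1, next to it on chromosome 10. Their coding sequences (444 bases each, GENCODE M21) differ at 22 bases and the longest identical run is 118 bases. Of the 395 windows of 50 bases, the read length used, 80 are the same in both genes. The first 150 coding bases are shown because most differences lie there, 14 of the 22, and capitals mark them.
Lyz2: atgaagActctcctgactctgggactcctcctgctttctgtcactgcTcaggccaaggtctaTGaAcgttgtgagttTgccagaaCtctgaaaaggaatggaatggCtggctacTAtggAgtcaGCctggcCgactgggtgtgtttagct
Lyz1: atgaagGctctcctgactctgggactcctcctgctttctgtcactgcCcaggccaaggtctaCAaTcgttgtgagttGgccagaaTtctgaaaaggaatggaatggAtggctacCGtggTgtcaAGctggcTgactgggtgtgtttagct
Lyz1 had 39, 14 and 88 reads in WT, against 43, 4 and 5 in Foxm1 HET. In every library this was far below Lyz2, so the counts above belong to Lyz2 apart from reads in the identical windows, whose assignment is not given in the sources used here. None of the 50-base transcript stretches of C1qa, C1qb, C1qc, Csf1r, Adgre1, Cd68 or Mrc1 occurs in another annotated gene, and 0.272% of those of Vcam1 do.

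By library, 5, 3 and 5 of the 9 genes had more than 3 reads in WT, against 6, 4 and 3 in Foxm1 HET. Without Lyz2, the other 8 genes together had 206, 16.2 and 149 CPM in WT, against 195, 56.3 and 4.65 CPM in Foxm1 HET. WT replicate 2 and Foxm1 HET replicate 3 were the lowest of their genotypes, and the genotypes overlapped. Lyz2 was 61.6 to 641 times as abundant per length as Csf1r, so the 2 genes were not in a fixed ratio between libraries. All 5 genes tested had a lower estimate in Foxm1 HET, their median log2 fold change being -1.22. Over all genes tested the median was -0.26, and 4471 of 8195 estimates were lower. Other scalings moved the median of all genes by up to 0.40 on the log2 scale, and RLE scaling turned the sign for Csf1r and Cd68.

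**Figure D2:**
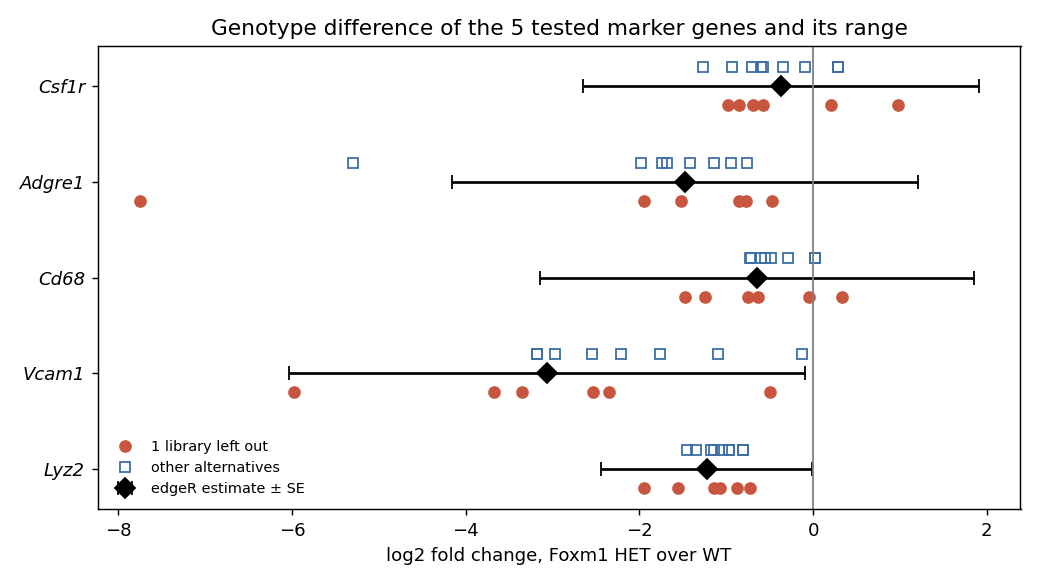
Log2 fold change of Foxm1 HET over WT for the 5 tested marker genes: black diamonds are the edgeR estimates with their standard errors, red points leave out 1 library each, and open blue squares are the other alternatives. The estimates for Csf1r and Cd68 lie on both sides of 0, and that of Vcam1 runs from -5.97 to -0.13.

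Genes that act with the markers were read from 4 lists, which hold 120 genes beside the 9 markers. Of these 120 genes, 60 were tested, and 19 of these had a higher and 41 a lower estimate in Foxm1 HET and a median log2 fold change of -0.78. None had an adjusted or unadjusted p under 0.05 in edgeR, and at an unadjusted p under 0.05 DESeq2 gave 5 of 49 genes (10.2%, against 13.1% of all genes) and limma-voom 4 of 60 (6.67%, against 3.31%), with 0 after adjustment in either. A further 29 of the 120 genes had no read in any library. The groups below are described in the order of the pathway.

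Of 33 complement components, receptors and regulators, 13 were tested, with 5 higher and 8 lower, and 16 had no read in any library. Like C1qa and C1qb, Vsig4, the complement receptor of resident macrophages, was at 0 in all 6 libraries. The receptor chain Itgb2, the integrin subunit shared by complement receptors, had the smallest p, with 10159, 3435 and 1774 reads in WT, against 5175, 30069 and 1965 in Foxm1 HET (edgeR log2 fold change 2.74 ± 1.44 SE, adjusted p = 0.854). Foxm1 HET replicate 2 was the highest library and the others were intermixed. Cd59a, a membrane inhibitor of complement, had 31, 6 and 0 reads in WT, against 409, 0 and 1400 in Foxm1 HET. Cfb, the protease of the alternative pathway, has 73.0% of its 50-base transcript stretches in common with another annotated gene, so its 11, 1688 and 0 reads in WT, against 3, 0 and 359 in Foxm1 HET are uncertain.

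Of 34 genes of the CSF1 receptor axis and of macrophage transcription factors, 26 were tested, with 8 higher and 18 lower. Their summed level was 2720 to 4712 CPM in WT and 977 to 3500 CPM in Foxm1 HET, which overlap, and 2511 to 6228 against 1529 to 2267 with TMM scaling, which do not. Of the ligands, Il34 had 0 reads in all libraries, and Csf1 had 53, 1 and 378 reads in WT, against 527, 15 and 51 in Foxm1 HET. Spi1, which encodes PU.1, was read in every library, with 483, 465 and 4502 reads in WT, against 1763, 1657 and 368 in Foxm1 HET (edgeR log2 fold change -0.06 ± 1.90 SE, adjusted p = 0.998). The smallest p-values belonged to the cytokine receptors Csf2ra (log2 fold change -3.11, standard error 1.63, adjusted p = 0.852) and Csf3r (-2.80, standard error 1.6, adjusted p = 0.906) in the edgeR test. Csf2ra had 1127, 484 and 34743 reads in WT, against 5741, 680 and 144 in Foxm1 HET. Csf3r, the receptor for G-CSF, had 6584, 3693 and 29283 against 3856, 584 and 5733, and its genotypes did not overlap on the scale of log2 CPM, as for 8.68% of the genes tested. Fcer1g, the signalling adaptor of Fc receptors, had 1791, 12346 and 11446 reads in WT, against 7058, 1108 and 19 in Foxm1 HET.

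Of 20 genes of marrow and erythroblastic island macrophages, 8 were tested, with 2 higher and 6 lower. Siglec1, which encodes the sialic acid receptor CD169 of marrow macrophages, had 0, 14 and 0 reads in WT, against 446, 1 and 0 in Foxm1 HET. Timd4, a receptor for dying cells, had 475 reads in Foxm1 HET replicate 1 and at most 1 elsewhere. The library that held the reads of Mrc1 was therefore also the highest for Siglec1 and Timd4. Mertk, another receptor for dying cells, had 323 reads in Foxm1 HET replicate 3 and at most 1 elsewhere, so the receptors were not found in the same library. Cd163, the scavenger receptor for haemoglobin, had 347, 1 and 2 reads in WT, against 136, 1 and 692 in Foxm1 HET. Trf, Emp1 and Klf1 had the smallest p-values, none under 0.05. Trf, which encodes transferrin, had 1976, 1 and 922 reads in WT, against 186, 3 and 30 in Foxm1 HET and shares 59.4% of its 50-base stretches with another annotated gene. Emp1 shares 20.6% of its exon bases with another gene, and Klf1 is an erythroid factor.

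Of 38 further genes of resident macrophages, 14 were tested, with 5 higher and 9 lower, and 11 had no read in any library. Marco, Clec4f and Cd14 were at 0 throughout. The smallest p-values belonged to the lectin Clec10a (1722, 0 and 20 reads in WT, 28, 0 and 1 in Foxm1 HET), the chemokine receptor Cx3cr1 (2198, 20 and 393 against 194, 2 and 20) and the lipid carrier Apoe (56, 1 and 1 against 1100, 4 and 299). Clec10a shares 9.02% of its 50-base stretches with its neighbour Mgl2. Fcgr1, the high-affinity Fc receptor of macrophages, had 1115, 0 and 2 reads in WT, against 122, 0 and 2 in Foxm1 HET. WT replicate 1 thus held the highest count of C1qc, Clec10a, Cx3cr1, Fcgr1 and Csf1r. Other macrophage genes went the other way in that library: Adgre1, Siglec1 and Timd4 had 0 reads, and Mrc1 and Mertk had 1 each. The highest counts of Cd68 and Vcam1 were in WT replicate 3, and that of Lyz2 was in Foxm1 HET replicate 1.

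**Figure D3:**
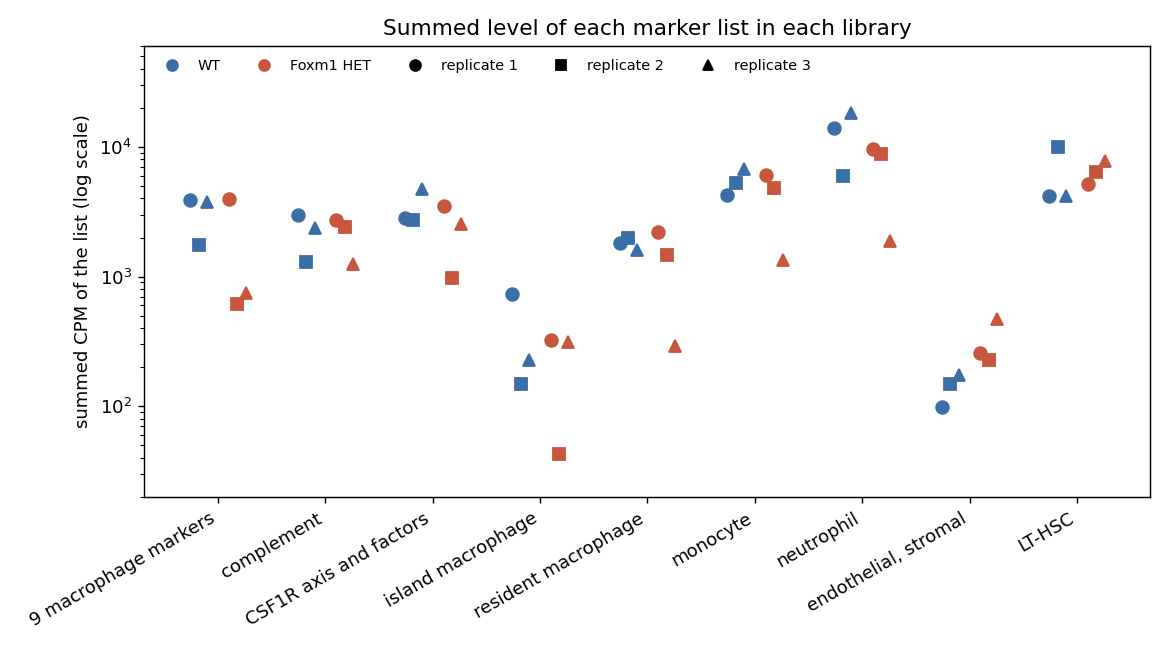
Summed CPM without TMM scaling, on a log scale, in each library (WT blue, Foxm1 HET red, a symbol for each replicate number). Shown are the 9 macrophage markers, 4 macrophage lists and the monocyte, neutrophil, and endothelial and stromal lists. The list marked LT-HSC holds identity and sorting markers, with Cd48, which the sort selects against. Of the sums plotted, those of the endothelial and stromal list (99.4 to 173 CPM in WT, 229 to 473 CPM in Foxm1 HET) do not overlap. With TMM scaling they do, and those of the CSF1 receptor list then do not (2511 to 6228 in WT, 1529 to 2267 in Foxm1 HET). The sums of the T and NK cell list, not plotted, also do not overlap in CPM (9.52 to 22.8 in WT, 25.2 to 124 in Foxm1 HET). With TMM scaling the T and NK cell sums overlap (9.47 to 30.1 in WT, 16.3 to 80.0 in Foxm1 HET).

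The deposited normalized values, on a log2 scale, gave the 7 markers present there another order in places. Lyz2 had 12.63, 11.79 and 12.63 in WT, against 12.92, 9.66 and 11.05 in Foxm1 HET. The scale depended on the library, at low counts and also above them. For Csf1r, 486 reads had a value of 4.12 in WT replicate 3 and 5.49 in Foxm1 HET replicate 2. At low counts, 2 reads of Mrc1 in WT replicate 3 had a value of 0.90, whereas 7 reads in Foxm1 HET replicate 3 had 0.22. For Adgre1, 51 reads in Foxm1 HET replicate 1 had 0.49 and 20 reads in WT replicate 3 had 2.18. For Vcam1, 7 reads in Foxm1 HET replicate 2 had 2.94 and 409 reads in Foxm1 HET replicate 1 had 1.91. With limma on these values no marker had an adjusted or unadjusted p under 0.05.

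**Figure D4:**
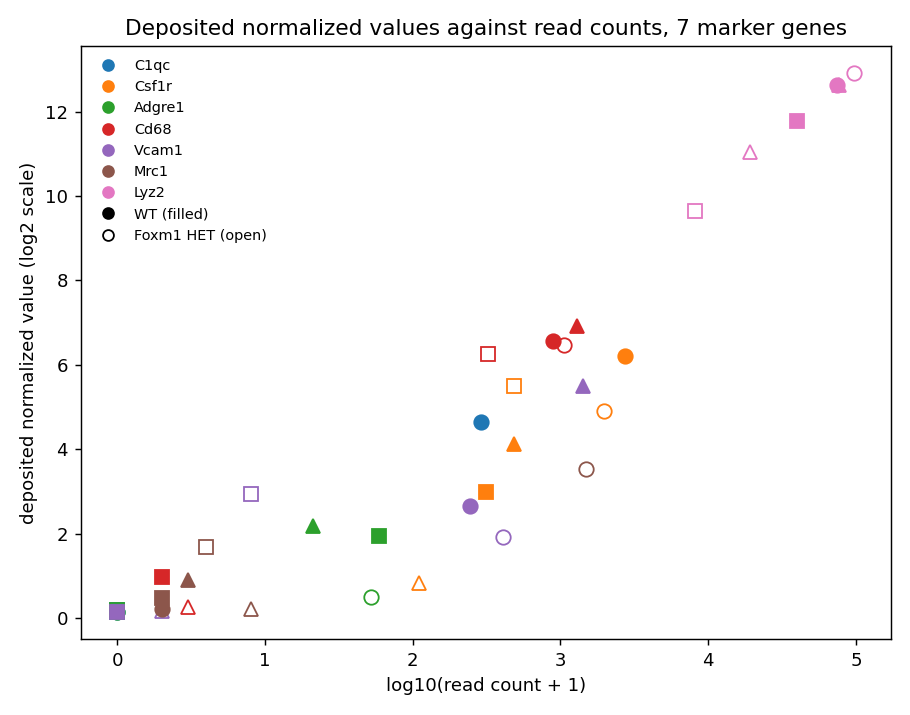
Deposited normalized value on a log2 scale against log10 of the read count plus 1 for the 7 markers in the normalized table, 1 colour a gene, filled for WT and open for Foxm1 HET, with circles, squares and triangles for replicates 1, 2 and 3. Values broadly rise with the count, and libraries differ, as for Vcam1 with 7 reads at 2.94 and 409 reads at 1.91. For Csf1r, 486 reads are at 4.12 in WT replicate 3 and at 5.49 in Foxm1 HET replicate 2.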

How the data were processed

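RNA-Seq was performed on sorted LT-HSCs of 3 WT and 3 Foxm1 HET mice. The authors aligned single reads of 50 bp to GRCm38 (mm10) with STAR 2.7.2b and deposited raw read counts for 27179 genes. The counting program and its strand setting are not given in the sources used here, and the labels and the methods name different library kits. The authors also deposited normalized values on a log2 scale for 12179 genes. limma is named in the submitters' processing notes.

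Groups came from the genotype labels and replicate numbers from the titles. Symbols came from RefSeq by gene ID. Counts were filtered with filterByExpr (minimum count 10), scaled by TMM and tested with edgeR 4.0.16 in R 4.3.3 (quasi-likelihood test, Benjamini-Hochberg adjustment over 8195 genes, threshold 0.05, tested on simulated data of lower spread than these libraries). Standard errors were taken from the F statistic, as the estimate over the root of F. Log2 CPM used a prior count of 2 and TPM the deposited lengths. Genotypes were also compared by an exact permutation test, two-sided. P-values measure the spread between these libraries. A count of 0 allows up to 3 reads. Alternatives used other scalings, filters, DESeq2 1.42.0, limma 3.58.1, the replicate number as a block and each library left out.

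The 9 genes and the lists were chosen with earlier results of these data known, and the motifs after the promoters were read. Named were all 9 markers, Foxm1 and the 3 genes with the smallest p in each macrophage list and in the monocyte, neutrophil and LT-HSC lists. In the megakaryocyte list and the endothelial and stromal list only the gene with the smallest p was named. None was named by this rule in the dendritic cell, erythroid, B cell and T and NK cell lists. A planned ranking of genes by likeness to the C1q pattern is not given, because C1qa and C1qb had no reads. TMM-scaled sums of the lists were added after the data were seen. Other genes, such as Spi1, Siglec1, Timd4, Mertk, Mpo, S100a8 and S100a9, were named after their values were seen.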

Additional observations from a re-analysis of the deposited data

How the results depend on the processing

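No alternative brought any marker that it tested, or any tested gene of the 4 macrophage lists, to an adjusted p under 0.05. C1qa and C1qb, which had no reads, could not be called under any alternative. C1qc and Mrc1 were tested only with no filter and with limma on the normalized table. The 29 list genes with no read in any library could not be called either. Of 72 alternative estimates for the 5 tested markers, 65 kept their sign. The log2 fold change of Csf1r was 0.29 with RLE scaling, 0.29 with DESeq2 and between -0.97 and 0.97 with each library left out. That of Cd68 was 0.019 with RLE scaling, 0.019 with DESeq2 and between -1.47 and 0.33 with each library left out. The number of markers whose genotypes did not overlap in log2 CPM was 1 (Mrc1), where 6.57% of the 13845 genes with a read did not overlap. C1qa and C1qb, with no reads, could not be separated by genotype. The number was 0 in the deposited normalized values, which hold 7 of the markers and neither C1qa nor C1qb.

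The count of genes past the adjusted threshold, 27 in the edgeR test, was 10 with RLE scaling, 43 with upper-quartile scaling, 7 with library size only, 194 with DESeq2, 4 with limma-voom and between 0 and 29 with each library left out (0 without WT replicate 1, WT replicate 2 or Foxm1 HET replicate 2, where 615, 549 and 626 had an unadjusted p under 0.05, and 1 without WT replicate 3). It was 0 with at least 10 counts in every library (157 at an unadjusted p under 0.05, of 2516 genes tested), 0 with limma on the normalized table (576) and 0 with the replicate number as a block (108). The cause was not tested. Same-numbered libraries did not deviate together (correlations from -0.07 to 0.02 over 3 pairs), and 1 of the 6 libraries correlated best with its own number, so the numbers were not taken as pairs. The study describes 3 pairs of mice, and the labels do not say which libraries form a pair. With the replicate number as a block the log2 fold change was -0.13 for Vcam1 and -5.29 for Adgre1.

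The biological coefficient of variation between libraries was 1.66, and a count of 0 allowed 0.116 to 0.206 CPM.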

Other observations

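Other cell types were read with the same marker lists. Of 20 monocyte markers, 18 were tested, and 8 of these had a higher and 10 a lower estimate in Foxm1 HET and 0 past the adjusted threshold of edgeR (1 with an unadjusted p under 0.05). That gene was Klf4, a factor of the monocyte lineage, with 5126, 10478 and 1536 reads in WT, against 731, 185 and 11 in Foxm1 HET. Its genotypes did not overlap on the scale of log2 CPM, as for 8.68% of the genes tested. The study names Klf4 as a gene with a part in hematopoiesis and reports it lower in Foxm1 HET HSCs by RT-PCR. Whether its reads came from stem cells or monocytes was not tested. Ms4a6c had 11, 51 and 97 reads in WT, against 8162, 6 and 913 in Foxm1 HET, and shares 10.5% of its 50-base stretches with Ms4a6b. Ccr2, the chemokine receptor of inflammatory monocytes, had 696, 1785 and 5759 against 4617, 13853 and 382. Of 17 neutrophil markers, 16 were tested, with 5 higher and 11 lower and 0 past the adjusted threshold (1 with an unadjusted p under 0.05). That was Retnlg, a gene of mature neutrophils, which had 260, 4639 and 2403 reads in WT, against 245, 23 and 3 in Foxm1 HET (edgeR log2 fold change -5.19 ± 2.57 SE, adjusted p = 0.786). Prtn3, a protease of early granules, went the other way, with 13, 71 and 2 reads in WT, against 1197, 365 and 5247 in Foxm1 HET (edgeR log2 fold change 5.78 ± 3.0 SE, adjusted p = 0.844).

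In the other lists no gene had an adjusted p under 0.05 in edgeR. Of 15 dendritic cell markers 7 were tested (5 higher, 2 lower), of 15 erythroid markers 11 (1 higher, 10 lower), of 12 B cell markers 3 (all lower) and of 12 T and NK cell markers 3 (2 higher, 1 lower). Of 12 megakaryocyte markers 3 were tested (2 higher, 1 lower), and Itgb3, the integrin chain of platelets, had 4, 263 and 13 reads in WT, against 1356, 2458 and 1298 in Foxm1 HET (unadjusted p = 0.0355, adjusted p = 0.768 from edgeR). Of 20 endothelial and stromal markers 5 were tested, all higher, and Tek, the angiopoietin receptor, had 242, 10 and 1 reads in WT, against 1082, 91 and 4071 in Foxm1 HET. Of 20 LT-HSC identity and sorting markers 18 were tested (8 higher, 10 lower). This list holds Cd48, which the sort selects against, and Cd48 is among the lower ones (edgeR log2 fold change -3.11). Mecom had the smallest p, with 910, 4431 and 60 reads in WT, against 1393, 21758 and 9561 in Foxm1 HET (unadjusted p = 0.0142, adjusted p = 0.555 from edgeR). Gata2 and Mllt3, next by p, had lower estimates in Foxm1 HET (edgeR log2 fold change -3.10 and -2.34, adjusted p = 0.938 and 0.961).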
